A study of Mus musculus with 12 samples.

Results

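JAK kinases, STAT transcription factors and SOCS inhibitors carry the signal of cytokine receptors to the nucleus and then end it. The set described here holds 10 mouse genes chosen by name, with earlier results of these data known. They are the kinase genes Jak1, Jak2 and Jak3, the STAT genes Stat3, Stat5a and Stat6, and the inhibitor genes Cish, Socs1, Socs2 and Socs3. Of these, 9 had a probe set of their own, out of 30472 named genes on the array. The only probe set listed for Jak3 is shared with Insl3, so no value is given for Jak3.

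Receptors of the cytokine families have no kinase activity of their own and hold JAK kinases on their intracellular tails. When a cytokine binds, the kinases phosphorylate STAT proteins, which pair up, enter the nucleus and switch on genes that include those of the SOCS family, and SOCS proteins in turn bind the receptors and kinases and end the signal. In macrophages STAT3 is the main factor of interleukin-6 and interleukin-10 signalling, STAT5 that of granulocyte-macrophage colony-stimulating factor, and STAT6 that of interleukin-4 and interleukin-13.

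The cells measured were RAW264.7, a mouse macrophage-like line, kept for 24 h in 1 of 4 media with 3 arrays each. The first, KO medium, came from PyMT-41C cells with a JMJD6 knockout (JMJD6-KO; replicates 1, 2 and 3). The second was SCR medium, from SCR PyMT-41C cells, with added CSH, which the labels call an ANXA-1 receptor blockade (replicates 1, 2 and 4), and the third was SCR medium without CSH (replicates 1, 3 and 4). The fourth was normal medium, RPMI with 10% FBS (replicates 2, 3 and 4). In the first 3 groups 50% of the volume was conditioned medium. The JMJD6 knockout belongs to the cells that produced the medium, and the measured cells carry none by their labels. There is no vehicle group and no group with CSH in normal medium among the labels. Whether replicates were separate cultures is not labelled, so the p-values below reflect the spread between these arrays, which may be technical.

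Each value is an RMA signal in log2 units, where a difference of 1 is a 2-fold change, and the level of one gene cannot be set against that of another because each has its own probes. Array medians over all probe sets lay between 5.40 and 5.52, and the number of arrays limits the precision. A gene was tested when it exceeded the median of its array in at least 3 arrays, which 18122 genes did, and it counted as changed at a limma adjusted p under 0.05. All 9 macrophage markers lay above the medians in all 12 arrays. Their mean was 13.01 to 13.13 in KO medium, 12.91 to 13.20 in SCR medium with CSH, 12.93 to 13.08 in SCR medium and 13.24 to 13.32 in normal medium. Within that list, 2 markers rose and 4 fell in SCR medium against normal medium, where 19.3% and 15.8% of all genes did. The 4 with the smallest p were Csf1r (-1.79), Adgre1 (-1.45) and Ptprc (-0.50), with lower signals, and Itgam (0.97), with a higher one. Cd14 was also higher, at a mean of 13.44 in SCR medium against 12.83 in normal medium. The part of these markers in the differences below was not tested. Of 10 epithelial markers, 2 exceeded an array median anywhere, with list means between 4.90 and 4.98 over the 12 arrays, and of the 4 named fibroblast markers none did.

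Of the 10 genes, 7 could be tested and 3 could not. Socs1 and Socs3 lay below the array medians in all 12 arrays, and Jak3 has no value. Cish passed only through the conditioned media, since its normal medium arrays all lay below the medians, so its difference from normal medium was in part set by the filter. Jak1, Jak2, Stat3, Stat5a, Stat6 and Socs2 lay above the medians in all 12 arrays.

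The DNA letters that STAT pairs bind are known from background: the half-sites TTC and GAA with 3 bases between them, or with 4 bases between them for STAT6. Both motifs, TTCNNNGAA and TTCNNNNGAA, read the same on either strand. In the 250 bases before the start site in the RefSeq promoters of GRCm38.p6, 9 of the 10 genes have an entry, all but Socs2. The motif TTCNNNGAA was found in 1 of those 9, Socs3, and in 8.13% of 27025 genes. TTCNNNNGAA was found in 0 of 9, and in 6.76% of all genes. With the 50 bases after the start site added, a window chosen after the sequences had been seen, Cish held TTCNNNGAA at 2 places, within bases 1 to 20 after its start. Over all genes 9.55% held it at least once in that window and 0.54% at 2 or more places. The stretches around these matches are shown because Cish and Socs3 were the 2 of 9 genes with a match in the longer window. Capitals mark the matches, Cish is on the + strand at chr9:107296654-107296683 and Socs3 on the - strand at chr11:117969501-117969530.
Cish: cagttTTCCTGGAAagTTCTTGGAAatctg
Socs3: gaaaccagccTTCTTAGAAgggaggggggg

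A match describes the letters only and does not show that a factor binds there. Cish, with 2 matches beside its start site only in the window chosen later, rose in all 3 conditioned media, a rise in part set by the filter. Whether the matches have a part in it was not tested. Socs3, with 1 match 154 to 146 bases before its start, stayed below the array medians in every array. Jak1, Jak2 and Stat5a, which also changed, held neither motif in the windows searched, which says nothing about the factors that act on them.

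RAW264.7 cells in SCR medium differed from those in normal medium in 5 of the 7 tested genes. Jak2 rose 2.13-fold, Cish 1.41-fold, Jak1 1.30-fold and Socs2 1.21-fold, and Stat5a fell. Stat3 and Stat6 did not pass. Over all genes tested, 35.2% changed in this comparison, 19.3% upward and 15.8% downward. Without overlap between the 2 groups were 6 of the 7 genes and 43.3% of all genes. Both counts include Cish, which passed the filter only through the conditioned media, so for Cish they were in part set by the filter. In these bulk samples fewer cells of a kind and less RNA per cell cannot be told apart.

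**Figure D1:**
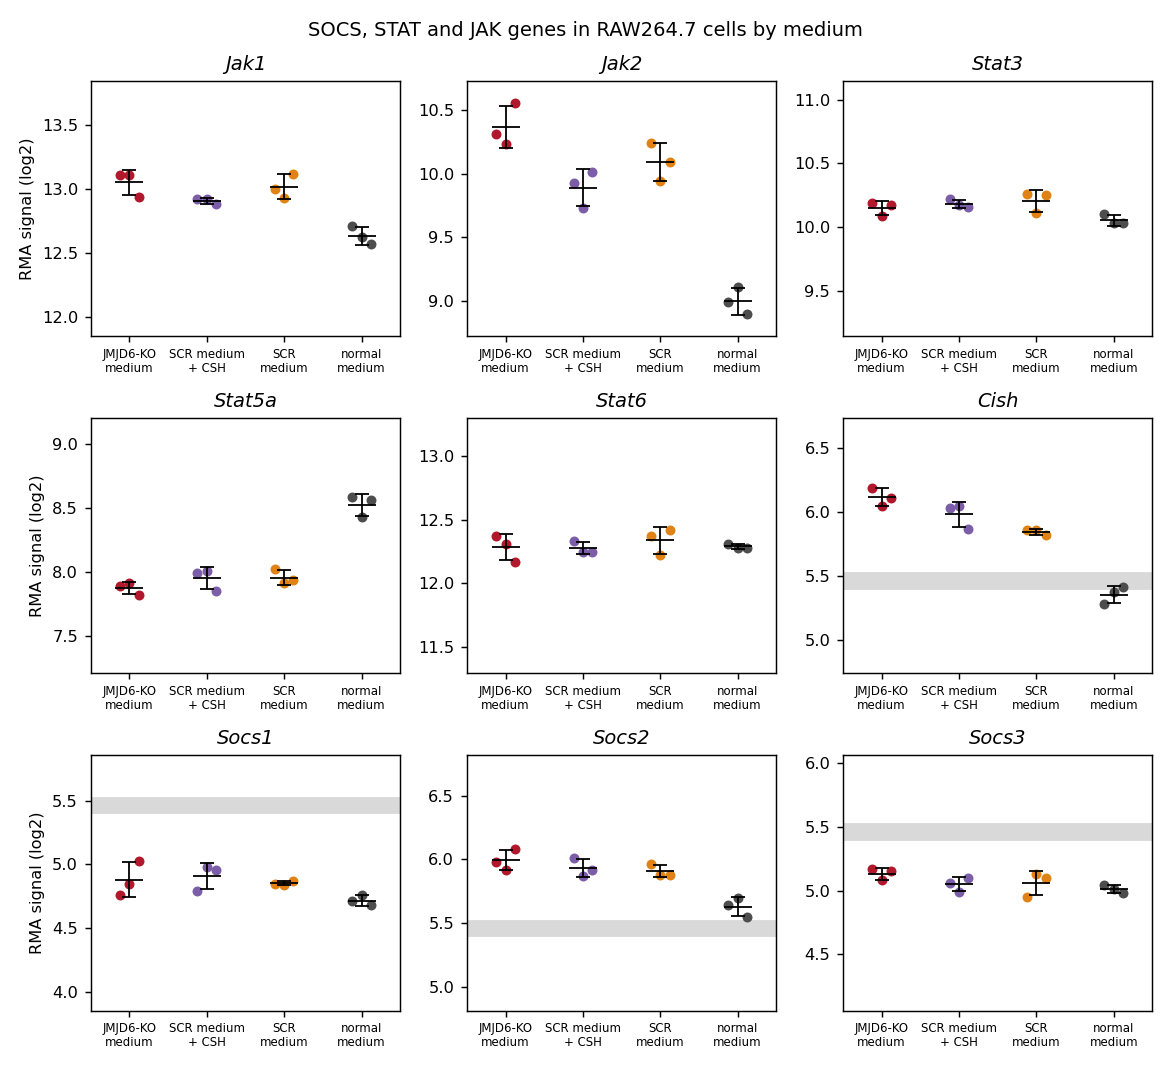
RMA signal (log2, vertical axis, each panel spanning an equal range) of the 9 genes with a probe set of their own, by medium; points are arrays, lines are means and bars are SD (n = 3), and grey bands span the array medians of 5.40 to 5.52. Normal medium lies below the conditioned media for Jak1, Jak2, Cish and Socs2 and above them for Stat5a, while Socs1 and Socs3 stay under the grey band in every array.

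Jak2, the kinase of receptors for interferon gamma and for colony-stimulating factors such as GM-CSF, moved most. It read 10.31, 10.23 and 10.55 in KO medium, 9.93, 9.73 and 10.01 in SCR medium with CSH, 10.24, 9.94 and 10.09 in SCR medium, and 8.99, 9.11 and 8.90 in normal medium. Every conditioned medium array lay above every normal medium array. Against normal medium, SCR medium gave a log2 change of 1.09 (SE 0.10, limma adjusted p = 5.04e-06), higher in 3 of 3 arrays. The order of the means was KO medium (10.36), SCR medium (10.09), SCR medium with CSH (9.89) and normal medium (9.0), and of the steps between neighbours in that order only the last passed the test.

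Jak1, which serves the interferon receptors, the gp130 receptors of the interleukin-6 family and the interleukin-4 receptor, moved less. It read 13.11, 13.11 and 12.94 in KO medium, 12.92, 12.92 and 12.88 in SCR medium with CSH, 13.00, 12.93 and 13.12 in SCR medium, and 12.71, 12.62 and 12.57 in normal medium. All 9 conditioned medium arrays lay above the 3 of normal medium. The log2 change in SCR medium against normal medium was 0.38 (SE 0.07, limma adjusted p = 0.000614). The means followed the same order as those of Jak2, with KO medium at 13.05, SCR medium at 13.02, SCR medium with CSH at 12.91 and normal medium at 12.63, and again only the last step passed.

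Stat5a, a factor activated by GM-CSF, interleukin-3 and prolactin, was the member of the set that fell. Its arrays read 7.89, 7.91 and 7.82 in KO medium, 7.99, 8.01 and 7.85 in SCR medium with CSH, 8.02, 7.91 and 7.94 in SCR medium, and 8.59, 8.43 and 8.56 in normal medium. The lowest normal medium array was above the highest conditioned medium array. In SCR medium it fell by 0.57 on the log2 scale (SE 0.06, limma adjusted p = 1.98e-05), a level 1.48-fold lower than in normal medium. The 3 conditioned media, with means of 7.87 (KO), 7.95 (with CSH) and 7.96 (SCR), were not told apart by the test.

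Stat5a lies on chromosome 11 (GRCm38.p6) at 100859351 to 100885169, between Stat5b at 100780731 to 100859004 and Stat3 at 100886806 to 100939594. The gaps are 346 bases on the Stat5b side and 1636 on the Stat3 side. Stat5b, a close paralog of Stat5a, read 9.19, 8.99 and 9.06 in SCR medium and 9.55, 9.36 and 9.53 in normal medium, so its groups did not overlap either. It fell by 0.40 (SE 0.08, limma adjusted p = 0.00105). Stat5a and Stat5b are closely alike in coding sequence, and how far the probes of one also bind the RNA of the other was not tested. Their neighbour Stat3 is described next.

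Stat3, the factor of interleukin-6 and interleukin-10, read 10.19, 10.09 and 10.17 in KO medium, 10.22, 10.17 and 10.16 in SCR medium with CSH, 10.26, 10.11 and 10.25 in SCR medium, and 10.10, 10.03 and 10.03 in normal medium. The 3 arrays of SCR medium lay above those of normal medium by a narrow margin, and those of KO medium overlapped them. The log2 change in SCR medium was 0.15 (95% interval 0.02 to 0.28, limma adjusted p = 0.0644). Without SCR replicate 3 it was 0.20 and passed (limma adjusted p = 0.0168). Over all 23 alternatives the change lay between 0.13 and 0.20, and the limma adjusted p between 0.00588 and 0.231.

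Stat6, the factor of interleukin-4 and interleukin-13, varied little between media. It read 12.37, 12.31 and 12.17 in KO medium, 12.33, 12.25 and 12.25 in SCR medium with CSH, 12.37, 12.22 and 12.42 in SCR medium, and 12.31, 12.28 and 12.28 in normal medium. All 4 groups overlapped. The log2 difference of SCR medium from normal medium was 0.05, with a 95% interval of -0.10 to 0.19 (limma adjusted p = 0.662), so a change of more than 0.19 in either direction lies outside that interval.

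Cish, the cytokine-inducible SH2 protein that restrains STAT5 signalling, read 6.19, 6.05 and 6.11 in KO medium, 6.03, 6.05 and 5.87 in SCR medium with CSH, 5.86, 5.86 and 5.82 in SCR medium, and 5.28, 5.37 and 5.41 in normal medium. All conditioned medium arrays exceeded all normal medium arrays. SCR medium gave a log2 change of 0.49 against normal medium (SE 0.06, limma adjusted p = 6.41e-05). Since the normal medium arrays lay below the array medians, Cish passed the filter only through the conditioned media, and this difference was in part set by the filter. RMA also compresses the changes of dim genes, so the size of the change may be understated. In the order of the means, KO medium (6.12), SCR medium with CSH (5.98), SCR medium (5.85) and normal medium (5.35), only the last step passed.

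Socs2, an inhibitor best known from growth hormone signalling, read 5.98, 5.92 and 6.08 in KO medium, 6.01, 5.87 and 5.92 in SCR medium with CSH, 5.96, 5.88 and 5.88 in SCR medium, and 5.64, 5.70 and 5.55 in normal medium. The conditioned media overlapped one another and lay above normal medium. The log2 change in SCR medium was 0.28 (SE 0.06, limma adjusted p = 0.00443). The means, 5.99 in KO medium, 5.93 in SCR medium with CSH, 5.91 in SCR medium and 5.63 in normal medium, were told apart only at the step to normal medium, and all 12 arrays read within 1 log2 unit of their medians.

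Socs1 and Socs3, inhibitors of interferon and gp130 signalling that cytokines are known to induce early, were dim in every medium. Socs1 read 4.76, 4.85 and 5.03 in KO medium, 4.79, 4.98 and 4.96 in SCR medium with CSH, 4.85, 4.84 and 4.87 in SCR medium, and 4.71, 4.76 and 4.68 in normal medium. Socs3 read 5.17, 5.08 and 5.15 in KO medium, 5.06, 4.99 and 5.10 in SCR medium with CSH, 4.95, 5.13 and 5.10 in SCR medium, and 5.04, 5.01 and 4.98 in normal medium. In a fit with no filter on low values neither was called in any of the 6 comparisons. The smallest limma adjusted p of Socs1 was 0.0817, for a log2 difference of 0.19 between SCR medium with CSH and normal medium, and that of Socs3 was 0.171, for 0.12 between KO medium and normal medium. Signals this far below the array medians do not show whether the genes were expressed.

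KO medium was set against SCR medium to ask whether the loss of JMJD6 in the cells that made the medium changed the response. None of the 7 tested genes passed limma, against 0.27% of all genes, and 2 of 7, Jak2 and Cish, had an unadjusted p under 0.05, against 5.95% of all genes. Cish averaged 6.12 ± 0.07 in KO medium and 5.85 ± 0.02 in SCR medium (SD, n = 3 each), and the 3 KO arrays lay above the 3 SCR arrays, a separation in either direction that 9.37% of all genes showed. The log2 difference was 0.27 (95% interval 0.13 to 0.41, limma adjusted p = 0.185). With array weights it was 0.29 and passed (limma adjusted p = 0.0126), and over all 23 alternatives the adjusted p lay between 0.0126 and 0.6.

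Jak2 averaged 10.36 ± 0.17 in KO medium and 10.09 ± 0.15 in SCR medium (SD, n = 3 each). The lowest KO array, at 10.23, lay just under the highest SCR array, at 10.24. The log2 difference was 0.27 (95% interval 0.05 to 0.50, limma adjusted p = 0.687). The other 5 genes differed by -0.08 to 0.09, with limma adjusted p = 0.995 for each. The 95% intervals of these 5 lay within -0.22 (the lower end for Stat5a) and 0.23 (the upper end for Socs2).

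CSH in SCR medium was set against SCR medium alone to ask whether the blockade altered the response. None of the 7 genes passed limma and none had an unadjusted p under 0.05. Over all 18122 genes limma called 0 (0%), while 6.24% had an unadjusted p under 0.05. Jak2 differed by -0.20 (95% interval -0.43 to 0.03), Jak1 by -0.11 (-0.26 to 0.04) and Cish by 0.14 (-0.00 to 0.28), and the smallest limma adjusted p of the set was 0.812. Jak1 and Cish were the 2 of 7 genes without overlap between these groups, against 8.59% of all genes.

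**Figure D2:**
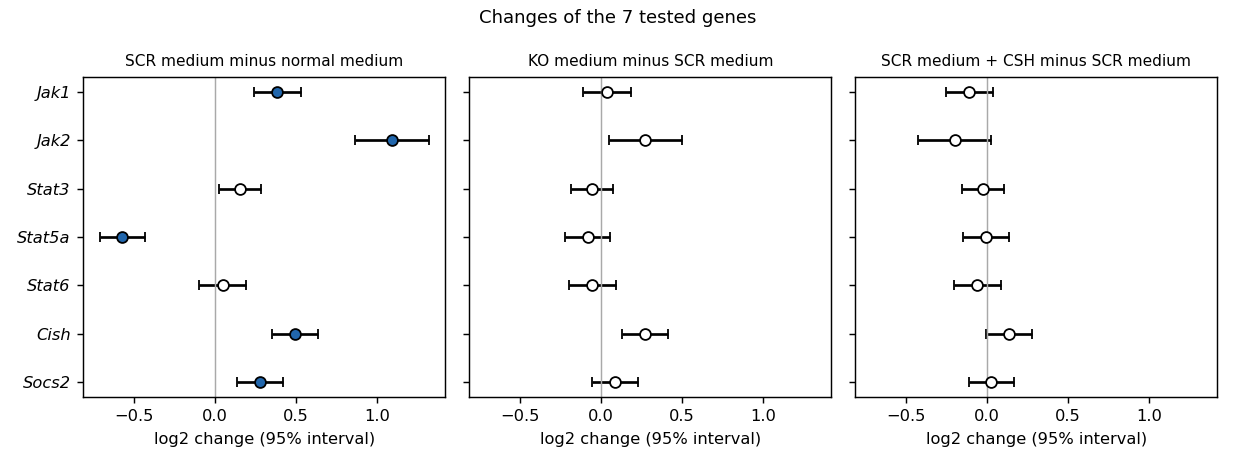
Log2 change (horizontal axis) of the 7 tested genes in 3 comparisons, with the 95% interval of the limma fit; filled points passed at an adjusted p under 0.05. Jak2 at 1.09 and Stat5a at -0.57 lie at the ends of the first panel, and no point is filled in the panels for KO medium and for CSH against SCR medium.

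Against normal medium, the other 2 conditioned media changed the same 5 genes in the same directions as SCR medium. The 3 comparisons share the normal medium arrays and are therefore not independent. Their counts include Cish, whose difference from normal medium was in part set by the filter. In KO medium 5 of 7 genes changed, against 39.1% of all genes (21.4% up and 17.6% down), and 5 of 7 had no overlap, against 49.8%, with Jak2 at 1.36, Cish at 0.76, Jak1 at 0.42, Socs2 at 0.36 and Stat5a at -0.65. In SCR medium with CSH 5 of 7 changed, against 35.8% of all genes (20.9% up and 14.9% down), and 6 of 7 had no overlap, against 46.8%, with Jak2 at 0.89, Cish at 0.63, Socs2 at 0.30, Jak1 at 0.27 and Stat5a at -0.58. Stat3 differed from normal medium by 0.10 in KO medium (limma adjusted p = 0.236) and by 0.13 in SCR medium with CSH (limma adjusted p = 0.114).

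KO medium against SCR medium with CSH gave a call for 1 of 7 genes, Jak2, against 1.90% of all genes (1.21% up). Jak1 and Jak2 were the 2 of 7 without overlap, against 21.8% of all genes. All 3 KO arrays, the lowest at 10.23, lay above the 3 arrays with CSH, the highest at 10.01. The log2 difference was 0.47 (SE 0.10, limma adjusted p = 0.0416). The call was lost when any one of 8 of the 12 arrays was left out: all 3 of KO medium, all 3 of SCR medium with CSH, SCR replicate 4 or normal medium replicate 2. Over all 12 choices of the array left out, the limma adjusted p lay between 0.0365 and 0.176 and the difference between 0.38 and 0.54.

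Other genes of the same pathway were taken from lists by role, chosen with earlier results of these data known, and the ligands were the first of these. Of 22 cytokine genes, 10 could be tested. In SCR medium against normal medium 5 rose and 2 fell, where 35.2% of all genes changed (19.3% up and 15.8% down), with a median log2 change of 0.25 against 0.02 for all genes. The rise of Il6, named after its values were seen, was in part set by the filter, since none of its normal medium arrays exceeded the medians. Il23a, a subunit of interleukin-23, rose by 1.25, Csf1, the macrophage growth factor gene, by 0.99 and Osm, the oncostatin M gene, by 0.72, while Il15 fell by 0.33. Csf1 counts among the 5 that rose although its receptor, Csf1r, has kinase activity of its own. In KO medium against SCR medium Lif, a gp130 cytokine, rose by 0.57 (SE 0.07, limma adjusted p = 0.00565) and Il23a by 0.73 (SE 0.12, limma adjusted p = 0.0201). Lif read 7.27, 7.09 and 7.04 in KO medium against 6.44, 6.63 and 6.61 in SCR medium. The Il23a call was lost without SCR replicate 3 or 4 or KO replicate 1 or 3, with limma adjusted p up to 0.118.

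Log2 changes of receptor genes in SCR medium spanned -1.97 to 2.27, beside -0.57 to 1.09 for the 7 genes of the set. Of 24 receptors listed, 19 were named and 15 tested: 4 rose and 7 fell in SCR medium, against 19.3% and 15.8% of all genes, with a median of -0.06. Il4ra, the receptor chain for interleukin-4 and interleukin-13, which signals through Jak1 and Stat6, read 10.49, 10.22 and 10.35 in SCR medium against 8.06, 8.11 and 8.08 in normal medium. That is a log2 change of 2.27 (SE 0.08, limma adjusted p = 3.51e-09), beside changes of 0.38 for Jak1 and 0.05 for Stat6. Il6ra, the interleukin-6 receptor gene, fell by 1.97, Il10ra, that of interleukin-10, by 1.71, and Csf3r, that of G-CSF, by 1.43. These 3 receptors, named for their small p, signal through Stat3. The other receptors that passed are named after their values were seen. Of these, Csf2ra rose by 0.87, Il21r by 0.58 and Il10rb by 0.37, while Il7r fell by 1.21, Ifngr1 by 0.55, Il15ra by 0.51 and Il6st by 0.21. Il4ra rose further in KO medium, by 0.62 over SCR medium (SE 0.08, limma adjusted p = 0.0079), with 10.97, 10.89 and 11.06.

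Of 8 other JAK, STAT and SOCS genes with a named probe set, Stat4 lay below the array medians in all 12 arrays, at 4.43 to 4.55. Of the 7 tested, 2 fell and 0 rose in SCR medium, where 35.2% of all genes changed (19.3% up and 15.8% down). Stat5b fell by 0.40 and Tyk2, the fourth JAK kinase, by 0.29 (SE 0.09, limma adjusted p = 0.0249). The Tyk2 call was lost without normal medium replicate 2, 3 or 4 or SCR replicate 3, with limma adjusted p up to 0.094. Stat2, the interferon factor, and Socs4, Socs5, Socs6 and Socs7, the less studied inhibitors, differed by -0.04 to 0.09 and did not pass. The median of the 7 was -0.03. None of the 7 passed in KO medium or with CSH against SCR medium.

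Of 13 inhibitors and phosphatases outside the SOCS family, all tested, 4 rose and 6 fell in SCR medium, against 19.3% and 15.8% of all genes, and the median was -0.35. Ptpn6, which encodes the phosphatase SHP-1 of blood cells, read 10.22, 10.14 and 10.05 in SCR medium against 11.60, 11.38 and 11.53 in normal medium, and fell by 1.37 (SE 0.10, limma adjusted p = 7.71e-07). Ptpn1, the phosphatase PTP1B that acts on Jak2 and Tyk2, fell by 0.85. Ptprc, the CD45 phosphatase and also a macrophage marker, and Dusp3 each fell by 0.50. None of the 13 passed in KO medium against SCR medium.

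**Figure D3:**
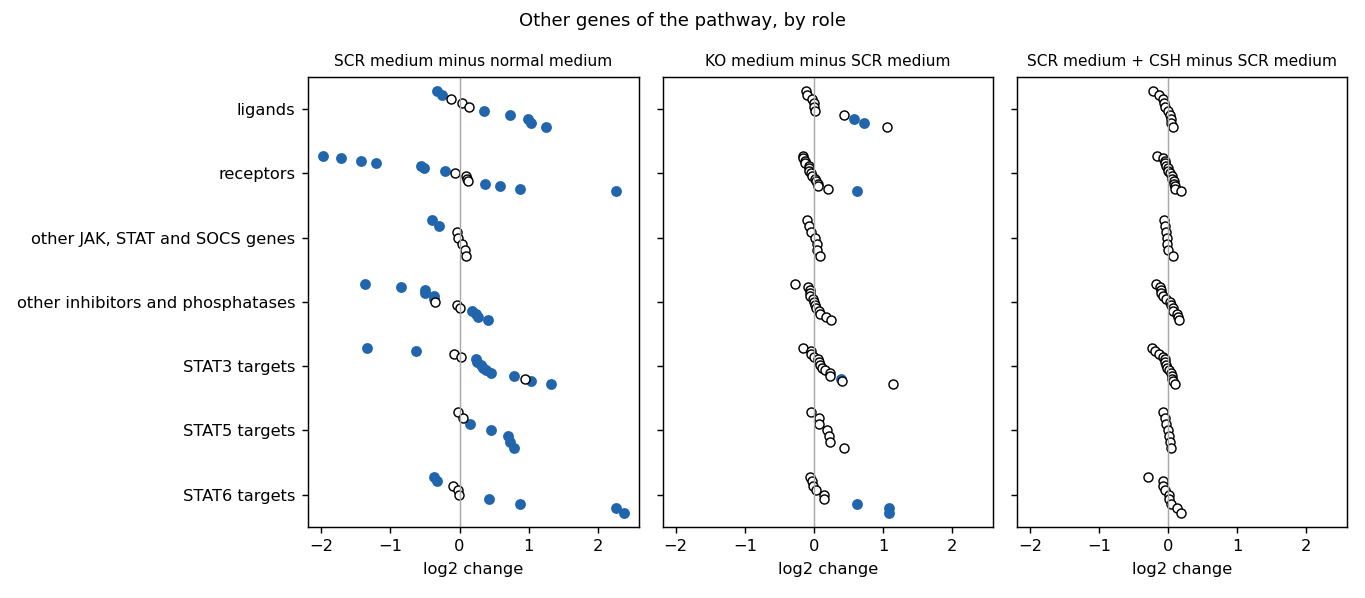
Log2 change (horizontal axis) of the tested genes of 7 lists by role in 3 comparisons; each point is a gene, filled where limma's adjusted p was under 0.05. Receptor changes span -1.97 (Il6ra) to 2.27 (Il4ra) in SCR medium against normal medium, and no point is filled for CSH.

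Genes known as targets of the STATs were counted by factor. The lists were drawn from general knowledge, but with earlier results of these data known. Their counts beside the share of all genes are therefore not independent of that choice. Osm, Pim1 and Il4ra stand in more than 1 list, and a target can also answer to other factors. In SCR medium against normal medium, 9 of 14 tested STAT3 targets rose and 2 fell, with a median of 0.32. Vegfa, the vascular growth factor gene, rose by 1.32 and Sbno2, a corepressor induced by interleukin-10, by 1.03, while the repressor gene Bcl6 fell by 1.35 and Etv3 by 0.62. Of 7 tested STAT5 targets 5 rose and 0 fell, with a median of 0.45, beside the fall of Stat5a and Stat5b. Pim1, a survival kinase gene that is also listed for STAT3, rose by 0.79, Osm by 0.72, Cd40 by 0.70 and Id1 by 0.45. The Id1 call was lost without normal medium replicate 3 or 4 or SCR replicate 3 or 4, with limma adjusted p up to 0.0707, and without normal medium replicate 4 or SCR replicate 4 the list's count was 3.

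Of 16 STAT6 targets listed, 15 were named and 9 tested. Chil3, Mrc1, Pparg, Ccl22, Cdh1 and Fcer2a exceeded the array median in no array of any medium and were not tested. Of the 9 tested, 4 rose and 2 fell in SCR medium against normal medium, with a median of -0.00. Irf4, 1 of the 2 that fell and named after its values were seen, exceeded the medians in the 3 normal medium arrays and in no others, so its fall was in part set by the filter. Tgm2, the transglutaminase gene of interleukin-4-treated macrophages, rose by 2.38, Il4ra by 2.27, Arg1, the arginase gene, by 0.88 and Klf4 by 0.42. Against 35.2% of all genes changed in this comparison, 11 of 14, 5 of 7 and 6 of 9 targets of STAT3, STAT5 and STAT6 did.

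In KO medium against SCR medium, 3 of the 9 STAT6 targets that could be tested rose, against 0.27% of all genes changed. Tgm2 read 11.13, 11.00 and 11.36 in KO medium against 10.01, 10.08 and 10.16 in SCR medium, and rose by 1.08 (SE 0.10, limma adjusted p = 0.000311). Arg1 read 7.79, 8.08 and 8.14 in KO medium against 6.63, 6.98 and 7.13 in SCR medium, and rose by 1.09 (SE 0.13, limma adjusted p = 0.00361). Neither pair of groups overlapped, and Il4ra was the third gene, while Stat6 itself differed by -0.05 (95% interval -0.20 to 0.09). Of the other lists, 1 STAT3 target rose, Vegfa by 0.39 (SE 0.07, limma adjusted p = 0.0332) and 0 of 7 STAT5 targets changed. The Vegfa call was lost without any one of the 3 KO arrays, SCR replicate 1 or 3, replicate 1 or 2 with CSH, or normal medium replicate 4, with limma adjusted p up to 0.149. With CSH, 0 genes of the 7 lists passed against SCR medium.

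**Figure D4:**
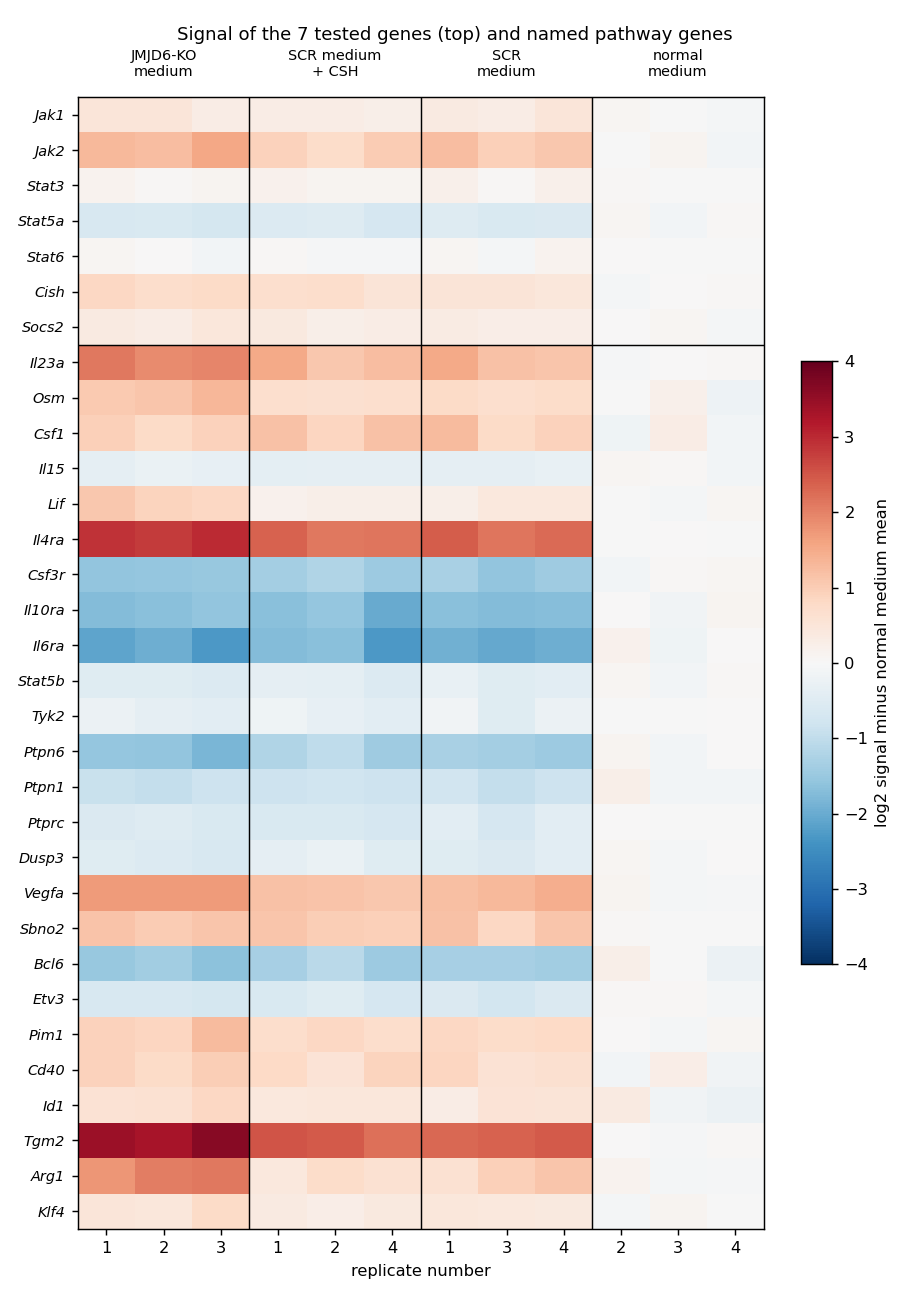
Signal of the 7 tested genes (above the line) and of the named pathway genes, each array minus the gene's mean in normal medium (log2, colour scale; columns are the 12 arrays by medium and replicate number). Il4ra and Tgm2 are the strongest rises and Il6ra the strongest fall in the conditioned media, and Tgm2, Arg1 and Lif are higher in KO medium than in SCR medium.

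The genes whose values followed those of Jak2 and Stat5a most closely over the 12 arrays were found among 11461 other tested genes that are not predicted genes, Riken clones or small RNAs. For Jak2 they were Rexo5, Sfmbt1 and Smim3, with Pearson r = 0.994, 0.993 and 0.993. For Stat5a they were Map4k1, Stard9 and Snx29, each with r = 0.995. As many as 617 genes reached r of 0.95 with Jak2 and 607 with Stat5a, and all these arrays share the step between normal and conditioned media, so the likeness is a description over 12 arrays in 4 groups. Smim3 read 12.50, 12.34 and 12.87 in KO medium, 12.32, 12.02 and 12.10 in SCR medium, and 10.18, 10.51 and 10.07 in normal medium. Map4k1 read 8.44, 8.38 and 8.21 in KO medium, 8.61, 8.46 and 8.48 in SCR medium, and 9.77, 9.55 and 9.62 in normal medium.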

How the data were processed

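Total RNA of 12 samples was measured on Affymetrix arrays. The authors deposited log2 signals, for which the submitters' processing notes name RMA, Affymetrix Expression Console and mm10, with no version, and probe filters are not stated. RMA scales the arrays to one another, which hides a change of total RNA per cell. The table held 65528 probe sets with 0 missing values, and 0 pairs of arrays were identical.

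Genes were named from the platform table, updated through the RefSeq table of GRCm38.p6. Of the probe sets, 31026 had 1 gene, 1470 several and 33032 none listed, 24506 of 25081 with an Entrez number matched, and probe sets with several genes named none. The probe set with the highest mean stood for the 439 genes with more than 1. Listed genes without such a probe set, Csf2rb, Csf2rb2, Il2rg, Il3ra, Il11ra1, Junb, Ccnd1 and Retnla among them, were not analysed here.

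Group differences were fitted over all 12 arrays with limma 3.58.1 (R 4.3.3), using lmFit and eBayes with its trend option. There were 8 residual degrees of freedom, and Benjamini-Hochberg adjustment covered 18122 genes. The script was checked on simulated data. The genes and lists were chosen with earlier results of these data known. Named genes are the 10 of the set, the other family members, up to 4 called genes with the smallest p in each list and main comparison, and the 3 genes nearest to the largest rise and fall; 1 further list is not reported here. Alternatives were other filters, quantile normalization, median centring, no trend, array weights, the mean of probe sets, a replicate block, leaving out each array, fitting only the 6 arrays compared, and thresholds of 0.01 and 0.1. Promoter sequences are from RefSeq. Plots used matplotlib 3.10.9 and Python 3.11.15.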

Additional observations from a re-analysis of the deposited data

How the results depend on the processing

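Over 23 alternatives, 948 of 966 recomputed log2 changes of the 7 genes kept their side of the threshold and any called direction, 0 called changes reversed, 13 lost a call and 5 gained one. All 13 losses were of Jak2 in KO medium against SCR medium with CSH. The number of genes of the set called there was 0, not 1, without a filter (limma adjusted p = 0.0758), with median centring (0.0674), with the replicate block (0.0821), with the 6 arrays alone (0.0836) and at a threshold of 0.01, and 0 to 1 with an array left out; the cause was not tested. KO against SCR medium called 1 with array weights, Cish, where 1 array, SCR replicate 4, had a weight of 6.14. Stat3 in SCR against normal medium gained a call with quantile normalization (limma adjusted p = 0.0352), array weights (0.00588), without SCR replicate 3 (0.0168) and at a threshold of 0.1. Jak2 in SCR against normal medium lay between 1.02 and 1.17 and Stat5a between -0.62 and -0.54. Over all genes, KO against SCR medium called 49, but 376 with array weights, 21 with 6 arrays, 19 at 0.01, and 26, 20 and 23 without SCR replicate 1, 3 and 4 and 21 and 22 without KO replicate 1 and 3, and CSH against SCR medium 0, but 79 with array weights and 1 at 0.1. KO medium against SCR medium with CSH called 345, but 210 without a filter, 574 with quantile normalization, 154 with median centring, 653 with array weights, 214 with the block, 168 with 6 arrays, 80 at 0.01, 631 at 0.1, 124, 160 and 154 without KO replicate 1, 2 and 3, and 107 and 201 without replicate 2 and 4 with CSH. Median centring removed the Tyk2 call (limma adjusted p = 0.0569) and, in KO against SCR medium, that of Vegfa (0.056), which was also lost without a filter (0.063), and in KO against SCR medium the 6 arrays alone removed those of Lif (0.051), Il23a (0.0629) and Vegfa (0.117). After group means were removed, the 12 same-number pairs of arrays correlated at -0.07 to 0.29, with a median of 0.07. The 42 other pairs correlated at -0.23 to 0.21, with a median of -0.05, and 5 of 12 arrays were closest to their own number. The ranges overlap, and whether equal numbers share a batch was not tested. Beside Jak2, the block removed the Vegfa call in KO against SCR medium (limma adjusted p = 0.117) and no other named call. Signal near the array medians limits what can be read for Cish and Socs2.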
